A study of Danio rerio with 54 samples.

Results

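Whole zebrafish larvae of the AB strain that had spent 24 h at 10 °C (lc_24 h) were set against larvae that had spent 12 h there (lc_12 h), with 3 samples in each group, which makes 6 of the 54 samples of the series. Over the later hours in the cold, 19 of 26 genes of the exocrine pancreas and 23 of 27 genes of intestinal absorption were upregulated and none of either list was downregulated, where 3.65% of all genes tested were upregulated and 5.53% downregulated. Of 24 tested genes for inflammatory mediators 11 were upregulated, and 9 to 10 when any 1 of the 6 samples was left out. Some of them were low at 12 h and were tested only through groups where they were higher. Among the 11 was *mmp13a*, which codes for a collagenase and went from 8.64 ± 1.58 to 72.0 ± 8.0 TPM (SD, n = 3). The clock repressor gene *per2* went from 24.4 ± 4.0 to 108 ± 7.31 TPM (SD, n = 3). Downregulated genes included several apolipoprotein genes, genes of the lens, of collagen folding and of the cell cycle, and *igfbp5a*, for a binding protein of insulin-like growth factors, which went from 30.4 ± 12.1 to 2.66 ± 0.629 TPM (SD, n = 3).

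The larvae were raised at 28 °C and moved to 10 °C at 96 h post fertilization (hpf), so that lc_12 h was collected at 108 hpf and lc_24 h at 120 hpf. Groups used beside them, with 3 samples each, were untreated larvae kept at 28 °C to 96, 108 and 132 hpf (ctrl_96 hpf, ctrl_108 hpf and ctrl_132 hpf) and larvae after 6 h at 10 °C (lc_6 h). The last 2 groups, er_ab and er_nor, were larvae at 144 hpf that had spent 24 h at 10 °C and then 24 h at 28 °C and looked abnormal or normal. All groups were whole bodies of the AB strain, and larvae that were dead at the end of treatment were removed. The larvae of lc_12 h and lc_24 h were collected at the end of the cold, so these samples can hold larvae that would not have survived rewarming. The series holds no untreated larvae of 120 hpf. Time in the cold, age and hour of the day therefore cannot be told apart between lc_12 h and lc_24 h. The study treats the samples of a group as biological replicates, and the sources used here do not give the clutch or dish of any sample, so a p-value refers to the spread among these samples.

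Zebrafish are warm-water fish, and 10 °C kills their larvae when the exposure lasts. In the cold, enzymes, membranes and mRNA decay all slow down, while signalling through stress kinases, the AP-1 factors they induce and the ATF4 pathway is known to respond to damage. At the age studied, the yolk is nearly used up and the gut, the liver and the exocrine pancreas, which makes the zymogens of digestion, take over the feeding of the larva, while the yolk syncytial layer and the liver secrete apolipoproteins that carry lipid to the tissues.

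Values are TPM, in which a gene's reads are corrected for transcript length and scaled to a common total per sample. A gene was called upregulated or downregulated when limma's test on log2(TPM + 1) gave a fold of 1.5 or more and a p of 0.05 or less after Benjamini-Hochberg adjustment over the 25387 genes tested. From lc_12 h to lc_24 h 926 genes rose and 1404 fell, and the median gene moved by -0.10 on the log2 scale (quartiles -0.31 and 0.11). After scaling by the median of ratios 1415 genes (5.57%) rose and 931 (3.67%) fell, so the share of upregulated genes among all calls went from 39.7% to 60.3% and the median of all genes to -0.01. After quantile normalization 1218 genes (4.80%) rose and 834 (3.29%) fell. Groups of genes are therefore described beside the median of all genes, and a count printed for a group comes with its counts under these scalings where they differ by more than 1.5 times. In 895 of the upregulated and 1337 of the downregulated genes the samples of the 2 groups did not overlap. These genes were called on the same 6 samples, so their separation is no further evidence. The share of all genes with samples apart is not given here. Genes at 1 TPM or more numbered 23169 to 23357 in the lc_12 h samples and 22685 to 22838 in the lc_24 h samples, and genes listed at 0 numbered 1403 to 1553 and 1815 to 1832. Mitochondrial transcripts made up 5.05% to 5.48% of the total at 12 h and 5.99% to 6.17% at 24 h. Of the defining genes of larval organs that were looked up, *hbbe1.3* of erythrocytes was not found under that symbol. The other 20 were present in every sample, from 2.05 TPM (*mpeg1.1* of macrophages) up to 5974 TPM (*mylpfa* of fast muscle). In such bulk samples a lower level can mean fewer cells of a type or less RNA per cell, and these cannot be told apart.

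**Figure D1:**
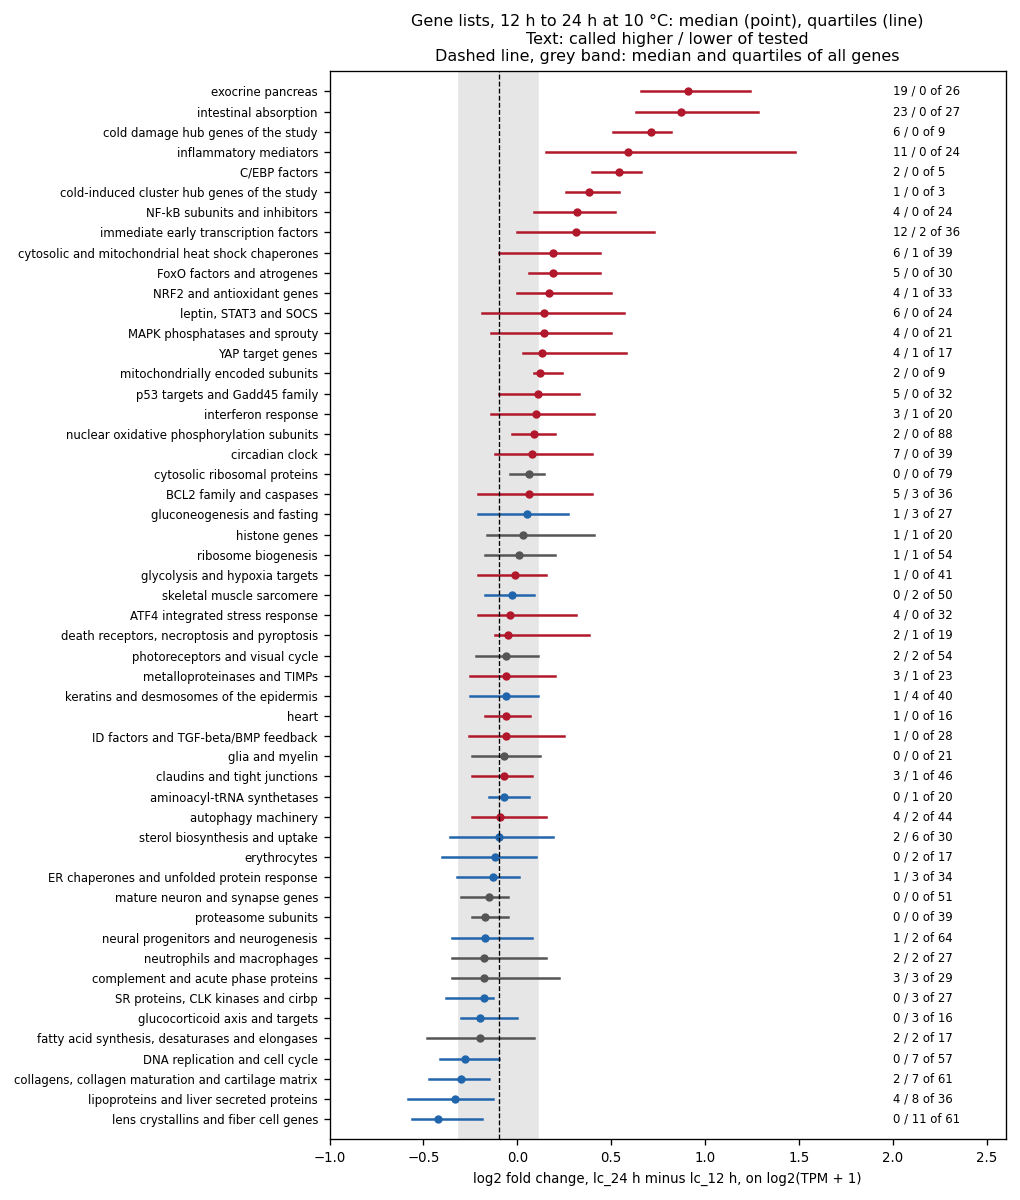
Median and quartiles of the log2 fold change from lc_12 h to lc_24 h for each of 52 gene lists, with the number of members called higher and lower, and the median (-0.10) and quartiles of all 25387 genes tested as a dashed line and a grey band. Red lists had more members called higher than lower, blue lists more called lower, and the exocrine pancreas (0.91) and intestinal absorption (0.87) lists lay highest while the lens list (-0.42) lay lowest.

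Genes of the digestive organs are described first. Among the zymogen genes *prss1*, which codes for trypsin, stood at 800.3, 750.5 and 1165 TPM at 12 h and at 1661, 1756 and 1505 TPM at 24 h. The groups did not overlap, although replicate 3 of lc_12 h was the highest of its group, as it also was for the other pancreatic genes given here. The log2 fold change of *prss1* was 0.88 ± 0.13 (SE, adjusted p = 8.4e-07). The elastase gene *ela2* rose from 349 ± 109 to 776 ± 40.4 TPM and the chymotrypsinogen gene *ctrb1* from 862 ± 248 to 1589 ± 104 TPM (SD, n = 3). Both share their symbol with another ID of the table, but their rise was also called with the IDs summed. The largest rise in the list was that of *pla2g1b*, the gene of the pancreatic phospholipase A2, at 5.68, 5.99 and 12.1 TPM at 12 h and 45.5, 45.7 and 36.1 TPM at 24 h (log2 fold change 2.35 ± 0.26, adjusted p = 2.4e-09). The amylase gene *amy2a* rose 3.88-fold, from 27.3 ± 8.77 to 106 ± 14.9 TPM (SD, n = 3), *ela3l* rose 2.6-fold and *sycn.2*, for a protein of the zymogen granule, 2.62-fold. Over the 26 pancreatic genes the median log2 fold change was 0.91, and 17 to 22 members were upregulated when any 1 of the 6 samples was left out.

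The levels at 12 h were below those of untreated larvae of the same age. In lc_12 h *prss1* was at 905 ± 226 TPM, beside means of 1010.4 TPM in ctrl_96 hpf and 2619 TPM in ctrl_108 hpf. At 24 h in the cold its mean of 1641 TPM was still below the 3914 TPM of ctrl_132 hpf. The same order held for the means of *pla2g1b*, at 12.8 TPM in ctrl_96 hpf, 7.92 TPM in lc_12 h, 42.4 TPM in lc_24 h, 68.0 TPM in ctrl_108 hpf and 84.0 TPM in ctrl_132 hpf. In untreated larvae 8 of the 26 pancreatic genes rose between 108 and 132 hpf (1.52% of all genes did, and 5.97% fell) and 2 fell. The step in the cold was compared with this step of growth by the difference of the log2 fold changes, which passed the adjusted p of 0.05 for 27.0% of all genes. The step of growth spans 24 h and ends at the same hour of the day, while the step in the cold spans 12 h and changes the hour. A small difference from growth, here and for the other lists, therefore does not show that the 2 steps are alike. For *pla2g1b* the difference was 2.05 (adjusted p = 2.5e-05) and for *sycn.2* 1.2 (adjusted p = 3.2e-04), while for *prss1* it was 0.31 (adjusted p = 0.226) and for *amy2a* 0.76 (adjusted p = 0.0699). None of the 26 pancreatic genes had risen after 6 h at 10 °C against ctrl_96 hpf, when 2.65% of all genes were upregulated and 2.19% downregulated.

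The intestinal list moved in the same way. The gene *fabp2*, for the fatty acid binding protein of enterocytes, stood at 493, 401 and 434 TPM at 12 h and at 791, 853 and 780.4 TPM at 24 h. All samples at 24 h were above all samples at 12 h, with a log2 fold change of 0.87 ± 0.09 (adjusted p = 1.3e-09). The villin gene *vil1*, whose protein bundles actin in microvilli, rose from 122 ± 8.20 to 274 ± 18.9 TPM (SD, n = 3). The membrane protein gene *tm4sf4* rose 2.43-fold and the peptide transporter gene *slc15a1b* 2.09-fold. The chitinase gene *chia.2* rose from 32.5 ± 7.46 to 118 ± 10.8 TPM, and the meprin gene *mep1a.1*, for a protease of the brush border, from 2.27 ± 0.784 to 10.2 ± 1.18 TPM (SD, n = 3). The median of the list was 0.87, and 23 of 27 members rose after median-of-ratios scaling too. Without replicate 1 of lc_24 h 1 member was called lower. The steps in growth differed among these genes, since *vil1* went from 189.8 TPM in ctrl_108 hpf to 95.8 TPM in ctrl_132 hpf while *chia.2* went from 203 to 535 TPM. The difference between the step in the cold and the step of growth was 2.13 for *vil1* (adjusted p = 2.0e-11) and 0.45 for *chia.2* (adjusted p = 0.224).

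Most genes of liver and yolk went down, and only 6 of 36 in their list had a log2 fold change above 0. Genes that rose are given first, as exceptions. The liver gene *fabp10a*, for a bile acid binding protein, stood at 268, 250.4 and 330.2 TPM at 12 h and at 608, 537 and 494 TPM at 24 h (log2 fold change 0.95 ± 0.11, adjusted p = 4.8e-09). The other defining gene of the liver, *tfa*, went down from 931 ± 43.7 to 766 ± 109 TPM (SD, n = 3). Its log2 fold change of -0.29 was under the fold limit. The gene *ttr*, for the thyroid hormone carrier transthyretin, rose from 21.9 ± 3.19 to 42.8 ± 4.80 TPM (SD, n = 3). The gene *fabp1b.1*, for another fatty acid binding protein, rose from 549.9 ± 44.4 to 1177 ± 80.8 TPM (SD, n = 3). The figure groups *fabp1b.1* with gut genes, but TPM of whole larvae cannot tell the tissue, so its rise is not read as a change of the liver. In the opposite direction, *apoba*, for the scaffold protein of lipoprotein particles, stood at 28.5, 26.5 and 25.2 TPM at 12 h and at 8.36, 11.5 and 5.55 TPM at 24 h (log2 fold change -1.6 ± 0.13, adjusted p = 4.0e-12). The apolipoprotein E gene *apoea* stood at 909, 865 and 836 TPM at 12 h and at 377, 502 and 228 TPM at 24 h, a log2 fold change of -1.31 ± 0.15 (adjusted p = 3.6e-09). In both genes replicate 3 of lc_24 h was the lowest sample and replicate 2 the highest of its group, and the groups did not overlap. This order held for *apoc1* (362 ± 102 TPM at 24 h against 654 ± 50 TPM at 12 h) and for *apoa1a*, which fell from 1915 ± 142 to 1092 ± 328 TPM (SD, n = 3). The most abundant member, *apoa2*, went from 5871 ± 218 to 3975 ± 742 TPM, a fold of 1.48 that missed the limit of 1.5, and was called without replicate 2 of lc_12 h (-0.61) or replicate 1 (-0.60) or 2 (-0.71) of lc_24 h. For *apoa1b* the groups overlapped (3505 ± 386 and 3107 ± 495 TPM, adjusted p = 0.0505). In all, 4 of 36 lipoprotein and liver genes rose and 8 fell, with a median of -0.33. Without replicate 2 of lc_24 h 15 members fell and without its replicate 3 only 5, and 6 fell after median-of-ratios scaling. The fall of *apobb.1*, from 206 ± 12.9 to 128 ± 38.5 TPM, was lost without replicate 3 of lc_24 h (-0.49). In untreated larvae 4 of the 36 genes rose from 108 to 132 hpf and 9 fell, beside 1.52% and 5.97% of all genes. There *fabp10a* went from 559.8 to 1036 TPM. Its step in the cold differed from this growth by 0.06 (adjusted p = 0.824). The difference was 0.20 for *apoa1a* (adjusted p = 0.551) and 0.16 for *apoa2* (adjusted p = 0.298). It was -0.68 for *apoea* (adjusted p = 0.0109), -0.73 for *apoba* (adjusted p = 0.00269) and -0.82 for *apoc1* (adjusted p = 1.2e-04).

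**Figure D2:**
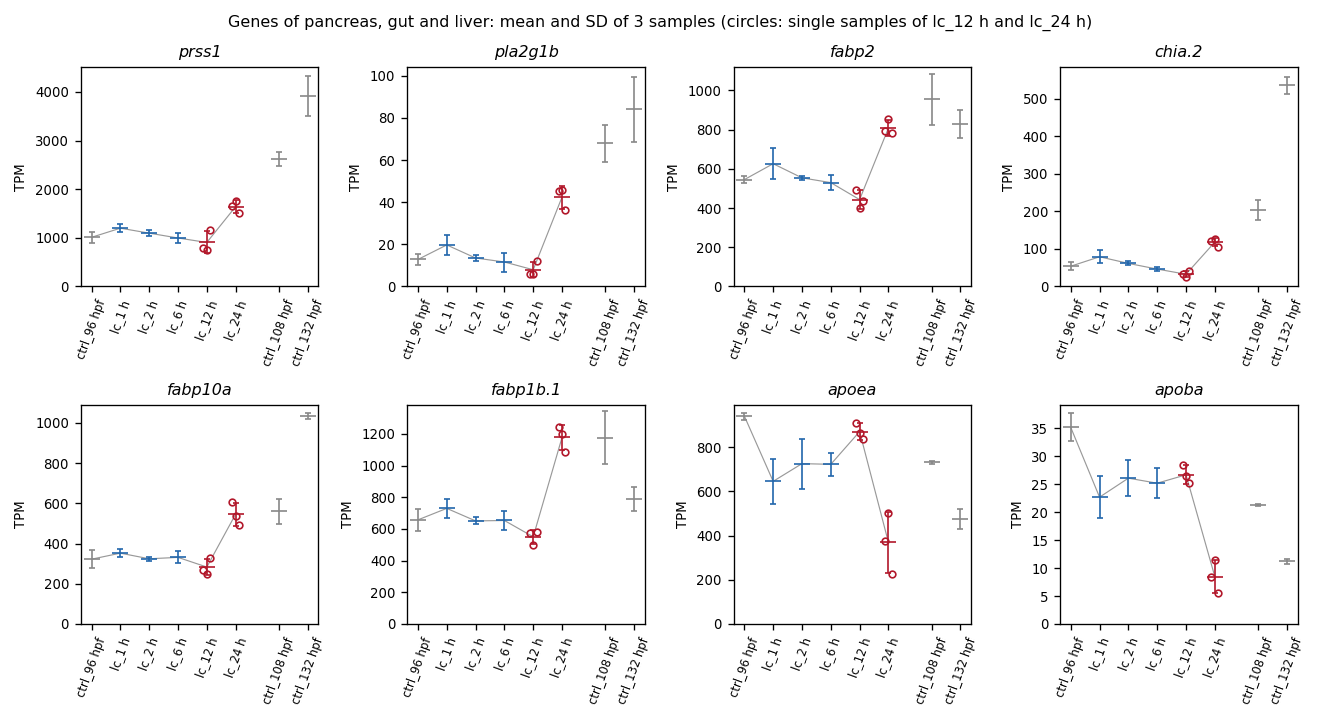
TPM of genes of the pancreas (*prss1*, *pla2g1b*), gut (*fabp2*, *chia.2*, *fabp1b.1*), liver (*fabp10a*) and of apolipoproteins (*apoea*, *apoba*) in ctrl_96 hpf, in larvae after 1, 2, 6, 12 and 24 h at 10 °C and in 2 older untreated groups, as mean and SD of 3 samples, with circles for single samples and groups spaced evenly. The first 6 genes rose between lc_12 h and lc_24 h, *pla2g1b* from a mean of 7.92 to 42.4 TPM, and the 2 apolipoprotein genes fell, *apoea* from 870.0 to 369 TPM.

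Immediate early genes, which answer signals without new protein synthesis, made up a further group that rose, with 12 of 36 members upregulated, 2 downregulated (1 after median-of-ratios scaling) and a median of 0.31. The AP-1 subunit gene *fosl1a* stood at 40.4, 46.4 and 55.3 TPM at 12 h and at 151, 173 and 160.3 TPM at 24 h. No sample overlapped, and the log2 fold change was 1.76 ± 0.35 (adjusted p = 1.2e-04). The stress factor gene *atf3* stood at 66.5, 71.9 and 85.4 TPM at 12 h and at 159, 160.2 and 169.6 TPM at 24 h (log2 fold change 1.13 ± 0.19, adjusted p = 8.2e-06). In ctrl_96 hpf the means were 0.846 TPM for *fosl1a* and 4.33 TPM for *atf3*, and at lc_6 h they were 20.5 and 37.8 TPM, so both genes were above the level of ctrl_96 hpf before this step. For *fosab*, the zebrafish c-Fos gene, the order of means was another one, with 178 TPM at 6 h, 96.7 ± 7.62 TPM at 12 h and 198 ± 6.73 TPM at 24 h (SD, n = 3). *junba* rose 2.17-fold, *egr4* 1.89-fold and *klf6a* 1.63-fold. Less change was measured for *jun* (174 ± 13.1 and 223 ± 11.5 TPM) and *junbb* (203 ± 16.6 and 274 ± 16.9 TPM), both under the fold limit.

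The 2 members that fell were *klf11a* and *klf11b*, for Krüppel-like repressors of transcription. *klf11a* stood at 73.7, 75.3 and 79.9 TPM at 12 h and at 48.3, 43.1 and 46.4 TPM at 24 h (log2 fold change -0.72 ± 0.06, adjusted p = 6.8e-12). *klf11b* fell from 80.1 ± 1.28 to 49.8 ± 3.65 TPM (SD, n = 3), a call that median-of-ratios scaling did not keep (-0.56). Both had been higher at lc_6 h (65.9 and 88.8 TPM) than in ctrl_96 hpf (18.4 and 16.9 TPM). Of the genes that rose by 6 h in the cold against ctrl_96 hpf, 30 (4.46%) fell from 12 h to 24 h, beside 5.53% of all genes. Of these 30, 6 had a mean of 5 TPM or more in either group, a plain symbol and the most abundant ID of that symbol. Among them were *klf11a*, *klf9*, the NADPH oxidase organizer gene *noxo1a* (45 ± 3.80 to 24.5 ± 0.883 TPM), the early B cell factor gene *ebf1b* (5.83 ± 0.156 to 3.24 ± 0.304 TPM) and *mala* (12.0 ± 1.64 to 6.95 ± 2.44 TPM, adjusted p = 0.0447). The call of *ebf1b* was lost after quantile normalization (-0.56), and that of *mala* after both other scalings (-0.65 and -0.63) and without replicate 2 (-0.69) or 3 (-0.70) of lc_12 h or replicate 2 (-0.51) or 3 (-0.78) of lc_24 h. In the reverse order, 6 of the genes that fell by 6 h (1.08%) then rose, beside 3.65% of all genes. Of these, *dre-mir-22a*, for a microRNA precursor, met the same limits (20.7 ± 1.78 to 32.6 ± 2.85 TPM). Its rise was lost without replicate 2 of lc_12 h (0.57).

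Phosphatases that switch off MAP kinases rose in part, with 4 of 21 genes of this list and the sprouty family upregulated and none downregulated. *dusp1* went from 109, 124 and 122 TPM to 235, 230.3 and 213 TPM, a log2 fold change of 0.93 ± 0.16 (adjusted p = 1.4e-05). *dusp5*, for a phosphatase of nuclear ERK, went from 41.7, 35.8 and 42.7 TPM to 76.3, 86.3 and 91.1 TPM, and both genes had no overlap between groups. In the list of the integrated stress response 4 of 32 genes rose and none fell. Its pseudokinase gene *trib3* stood at 71.5, 76.7 and 80.8 TPM at 12 h and at 135, 147 and 148 TPM at 24 h (log2 fold change 0.90 ± 0.08, adjusted p = 1.1e-11), against a mean of 13.9 TPM in ctrl_96 hpf. *ppp1r15a*, for the subunit that directs a phosphatase to eIF2 alpha, rose 1.58-fold and *sesn2*, for an inhibitor of mTORC1, 2.11-fold. The factor of the pathway itself, *atf4a*, stood at 392 ± 5.88 and 339 ± 5.59 TPM (SD, n = 3), with a log2 fold change of -0.21 that was under the fold limit. Of 32 targets of p53 and Gadd45 genes 5 rose and none fell, among them *gadd45ba* (1.97-fold) and the cell cycle inhibitor gene *cdkn1a* (1.64-fold).

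Among these are the 9 genes that the study names as hubs of its cold damage module, a list chosen on these samples and so no independent evidence of a direction. From 12 h to 24 h 6 of them rose (*trib3*, *ppp1r15a*, *dusp5*, *gadd45bb*, *otud1* and *tagapa*), and the median of the 9 was 0.71. *gadd45bb* rose 1.70-fold, *otud1*, for a deubiquitinase, 1.69-fold and *tagapa*, for a GTPase-activating protein, 2.19-fold. *plekhn1* reached a fold of 1.48 and was called after median-of-ratios scaling (0.63), *junbb* of 1.35 and *jun* of 1.28. Of the 3 hubs named for the cold-induced cluster, *per3* rose 1.63-fold, *traf6* stood at 16.9 ± 0.326 and 22.4 ± 0.502 TPM and *trim8a* at 28.0 ± 0.839 and 31.1 ± 0.390 TPM (SD, n = 3).

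Among the inflammatory mediators 11 of 24 genes were upregulated and none downregulated, with a median of 0.59. With any 1 of the 6 samples left out 9 to 10 were upregulated. *mmp13a* stood at 6.94, 8.92 and 10.1 TPM at 12 h and at 68.7, 81.1 and 66.2 TPM at 24 h (log2 fold change 2.93 ± 0.53, adjusted p = 3.1e-05). Its symbol has another ID, and with both summed the log2 fold change was 2.54. The chemokine gene *cxcl8a*, whose product attracts neutrophils, stood at 10.9, 7.21 and 12.6 TPM at 12 h and at 50.7, 55.7 and 48.3 TPM at 24 h (log2 fold change 2.25 ± 0.44, adjusted p = 9.3e-05). Its mean had been 7.77 TPM at lc_6 h and 3.96 TPM in ctrl_96 hpf. Another chemokine gene, *cxcl18b*, rose from 8.20 ± 0.534 to 27.1 ± 3.40 TPM, and the cyclooxygenase gene *ptgs2a* from 35.0 ± 5.54 to 63.5 ± 5.46 TPM (SD, n = 3). Its paralog *ptgs2b* was at 1.5 TPM in ctrl_96 hpf, 20.1 TPM at lc_6 h, 137 ± 14.0 TPM at 12 h and 189.6 ± 20.8 TPM at 24 h, a last step under the fold limit. The genes of the cytokine IL-11, *il11a* and *il11b*, rose from 0.673 ± 0.10 to 3.93 ± 0.489 TPM and from 1.09 ± 0.356 to 4.72 ± 0.594 TPM. At 12 h *il11a* was below 1 TPM, and by its mean and SD *il11b* did not have all its samples at 1 TPM or above. Both were tested only because another group had all its samples at that limit or above. The calls of *il11a* and *il11b* are therefore not independent of the filter. For *il1b*, for interleukin-1 beta, the samples were 2.94, 4.08 and 4.98 TPM and 13.8, 14.4 and 12.0 TPM, but the spread of this gene over the series left an adjusted p of 0.0434, and the call was lost whenever any 1 of the 6 samples was left out (1.38 to 1.68).

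The list of leptin, STAT3 and SOCS genes had 6 of 24 upregulated members and none downregulated. Both leptin genes were low, *lepa* at 0.567 ± 0.261 and 2.56 ± 0.902 TPM and *lepb* at 0.469 ± 0.621 and 3.15 ± 0.403 TPM (SD, n = 3), and both were called. With means below 1 TPM at 12 h, they were tested only through groups where they were higher. *socs3a*, whose protein feeds back on STAT3, rose from 24.2 ± 2.80 to 62.2 ± 3.27 TPM, and *il6st*, for the receptor subunit gp130 shared by IL-6 and IL-11, from 14.5 ± 0.189 to 27.0 ± 1.44 TPM. Among NF-kB genes 4 of 24 rose (9 after median-of-ratios scaling, 7 after quantile normalization) and none fell, of which *relb* (1.81-fold) and *nfkb2* (1.66-fold) code for the subunits of the alternative pathway. The inhibitor gene *nfkbiaa* stood at 139.9 ± 11.2 and 175 ± 21.9 TPM (adjusted p = 0.108), after 158 TPM at lc_6 h. Without replicate 3 of lc_12 h 1 NF-kB gene was called lower, and without replicate 2 of lc_12 h or replicate 1 or 3 of lc_24 h 1 gene of the leptin list. C/EBP factor genes *cebpb* and *cebpa* rose 1.58-fold and 1.86-fold, 2 of the 5 in the list. *cebpa* was at 21.6 TPM in ctrl_96 hpf and 14.9 ± 1.21 TPM in lc_12 h, so its 27.7 ± 2.40 TPM in lc_24 h followed a lower level, while *cebpb* had been at 23.7 TPM in ctrl_96 hpf.

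Of 17 targets of YAP 4 rose and 1 fell. *ccn1*, for a secreted protein of the matrix, rose from 69.0 ± 8.57 to 109 ± 8.78 TPM (SD, n = 3). After summing the IDs of each symbol 2 of these targets rose and none fell. Of 20 interferon response genes 3 rose and 1 fell, the factor gene *irf1b* from 5.83 ± 0.496 to 17.8 ± 1.91 TPM and *isg15* from 1.92 ± 0.547 to 5.54 ± 0.483 TPM. Of 29 complement and acute phase genes 3 rose and 3 fell, with a median of -0.18. The acute phase gene *hamp*, for the iron hormone hepcidin, rose from 38.4 ± 4.91 to 88.4 ± 19.4 TPM, while the complement gene *c3a.1* fell from 67.8 ± 10.7 to 39.1 ± 5.68 TPM (SD, n = 3). Of 23 genes of metalloproteinases and their inhibitors 3 rose and 1 fell, and the inhibitor gene *timp2b* rose from 11.4 ± 0.792 to 22.3 ± 1.32 TPM (SD, n = 3).

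Markers of the leukocytes that make several of these mediators did not rise as a group, and their part in the changes was not tested. Of 27 genes of neutrophils and macrophages 2 rose and 2 fell with a median of -0.18, and their summed level was 257 to 308 TPM at 12 h and 216 to 264 TPM at 24 h. Without replicate 2 of lc_12 h 1 of them rose. The defining genes were low but present, *mpx* of neutrophils at 7.46 ± 0.631 and 5.65 ± 0.726 TPM and *mpeg1.1* of macrophages at 3.83 ± 0.692 and 2.82 ± 0.729 TPM. *mpeg1.2* fell from 6.66 ± 2.06 to 2.19 ± 0.579 TPM and *grn1*, for a granulin, rose from 19.1 ± 5.13 to 38.0 ± 2.33 TPM. The lysozyme gene *lyz* fell from 103 ± 15.6 to 58.4 ± 18.7 TPM in its main ID, but with its 3 IDs summed the log2 fold change was -0.18 and was not called.

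**Figure D3:**
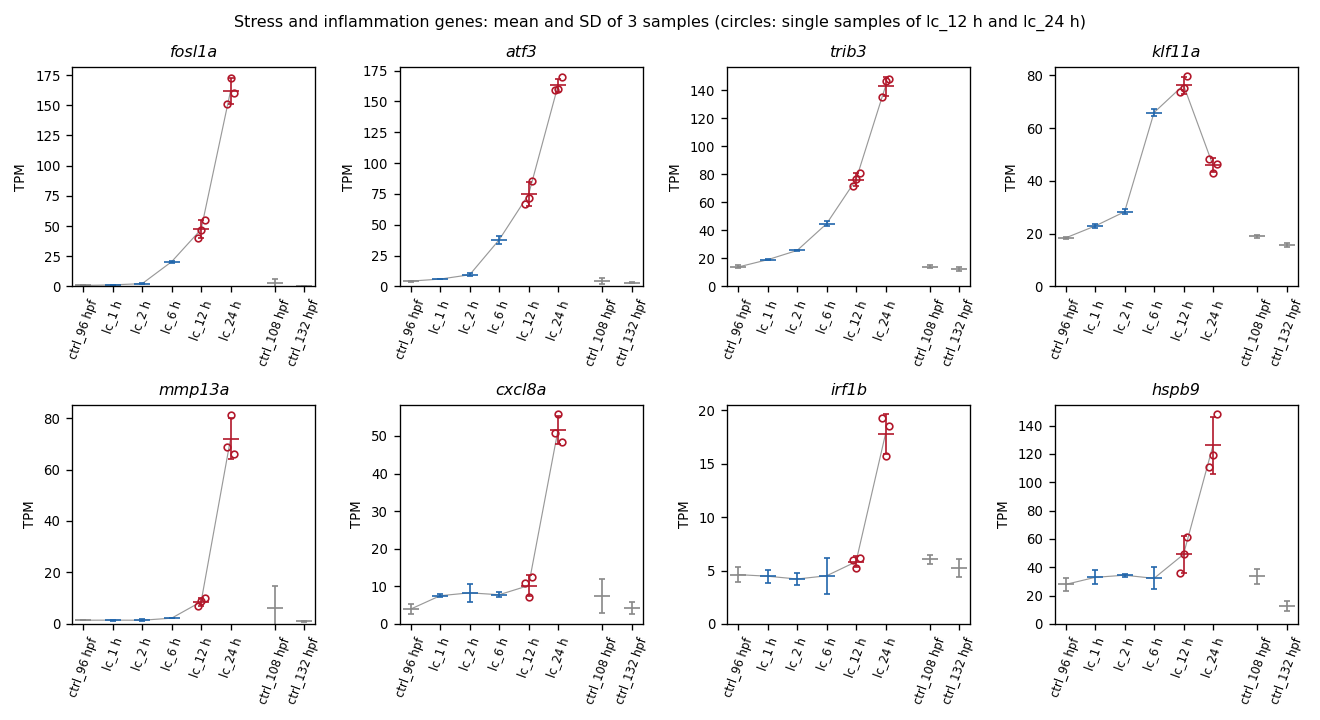
TPM of *fosl1a*, *atf3*, *trib3*, *klf11a*, *mmp13a*, *cxcl8a*, *irf1b* and the heat shock gene *hspb9* over the time at 10 °C and in untreated larvae of 3 ages, as mean and SD of 3 samples with circles for single samples of lc_12 h and lc_24 h and groups spaced evenly. *fosl1a*, *atf3* and *trib3* were above ctrl_96 hpf at lc_6 h, *mmp13a* went from 2.25 TPM at lc_6 h to 8.64 and 72.0 TPM, and *klf11a* had its highest mean, 76.3 TPM, at lc_12 h.

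Of 39 cytosolic and mitochondrial heat shock genes 6 rose (10 after median-of-ratios scaling) and 1 fell, and the 6 were small heat shock and Hsp70 genes. *hspb9* stood at 35.9, 49.7 and 61.5 TPM at 12 h and at 111, 119 and 148 TPM at 24 h (log2 fold change 1.36 ± 0.18, adjusted p = 1.3e-07). *hspb11* rose 2.25-fold, from a mean of 42.7 to 96.1 TPM, and the inducible Hsp70 gene *hsp70l* 1.75-fold. The constitutive *hspa8*, among the most abundant chaperone genes, stood at 1046 ± 30.7 and 1468 ± 53.5 TPM (SD, n = 3), a fold of 1.4 that was called only after median-of-ratios scaling (0.61). The call of the downregulated member was lost without replicate 2 of lc_24 h.

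In the endoplasmic reticulum, where secreted proteins fold, 1 of 34 genes rose (2 after median-of-ratios scaling) and 3 fell (2 after either other scaling). The sensor gene *ern1*, for the kinase and endonuclease IRE1, fell from 9.38, 11.2 and 10.5 TPM to 3.75, 2.12 and 2.19 TPM (log2 fold change -1.65 ± 0.20, adjusted p = 2.1e-08). *pdia4*, for a disulfide isomerase, fell from 42.5 ± 1.83 to 26.8 ± 1.83 TPM, a call not kept after median-of-ratios scaling (-0.53) or quantile normalization (-0.57). *hsp90b1* fell 1.84-fold in its main ID, but had a log2 fold change of -0.24 with its IDs summed, which was no call. *hspa5*, for the chaperone BiP, stood at 296 ± 11 and 289.9 ± 10.7 TPM with overlapping samples, and *dnajb9b*, for a cochaperone of BiP, rose from 7.56 ± 0.488 to 13.7 ± 1.29 TPM. Without replicate 3 of lc_12 h or of lc_24 h 2 genes of the list rose. In untreated larvae *hspa5* went from 171 TPM at 108 hpf to 54.7 TPM at 132 hpf, and the difference between this step and the step in the cold was 1.6 (adjusted p = 3.4e-17).

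Antioxidant genes rose in 4 of 33 cases (9 after median-of-ratios scaling) and fell in 1 (0 after quantile normalization). *hmox1a*, for the heme oxygenase that degrades heme, stood at 30.1, 27.4 and 27.4 TPM at 12 h and at 81.4, 76.3 and 78.9 TPM at 24 h (log2 fold change 1.45 ± 0.14, adjusted p = 8.5e-11), with 10.5 TPM in ctrl_96 hpf. *gstp2*, for a glutathione transferase, rose from 82.0 ± 11.8 to 173 ± 17.6 TPM, and the metallothionein gene *mt2* from 127 ± 14.6 to 209.5 ± 31.6 TPM (SD, n = 3). The ferritin gene *fth1a* stood at 830.2 ± 11.2 and 1172 ± 54.6 TPM, a fold of 1.41 that was called after median-of-ratios scaling (0.62). The call of the downregulated member was lost without replicate 2 of lc_12 h.

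Of 44 autophagy genes 4 rose and 2 fell (1 after either other scaling). *sqstm1*, for the cargo receptor p62, went from 96.9, 99.9 and 99.7 TPM to 174, 187 and 176 TPM (log2 fold change 0.85 ± 0.07, adjusted p = 3.7e-12), and *tfe3a*, for a factor that drives lysosomal genes, from 4.67 ± 0.566 to 13.2 ± 2.03 TPM. Without replicate 1 of lc_12 h or replicate 2 or 3 of lc_24 h 1 of the 2 downregulated autophagy genes kept its call. FoxO factors and the genes of muscle wasting rose in 5 of 30 cases with none downregulated, and the median was 0.19. The muscle ubiquitin ligase gene *trim63a* rose from 70 ± 5.73 to 139.9 ± 15.7 TPM and *fbxo32* from 5.39 ± 2.40 to 10.5 ± 1.4 TPM, while *foxo1a* rose 1.76-fold and *igfbp1a*, for a fasting-induced binding protein of insulin-like growth factors, 1.62-fold. In untreated larvae *fbxo32* went from 7.93 TPM at 108 hpf to 48.0 TPM at 132 hpf.

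Genes of cell death were called in both directions, and few of them fell. Of all genes 3.65% rose and 5.53% fell, or 5.57% and 3.67% after median-of-ratios scaling. Beside these shares the falls in the following 2 lists are not read as a result. In the BCL2 and caspase list 5 of 36 rose and 3 fell (8 and 1 after median-of-ratios scaling), with 3 rising without replicate 1 of lc_12 h and 2 without replicate 1 of lc_24 h. *casp8l2*, for a relative of caspase-8, stood at 4.93, 3.94 and 3.65 TPM at 12 h and at 12.8, 19.1 and 8.61 TPM at 24 h, apart in all samples but uneven at 24 h (log2 fold change 1.43 ± 0.24, adjusted p = 8.8e-06). *apaf1*, for the core of the apoptosome, rose from 12.6 ± 0.498 to 20.6 ± 0.217 TPM. *casp2* fell from 427 ± 16.0 to 264 ± 16.3 TPM (SD, n = 3), which was not called after median-of-ratios scaling (-0.57). Among 19 genes of death receptors, necroptosis and pyroptosis 2 rose (4 after either other scaling) and 1 fell, with 4 rising without replicate 3 of lc_24 h and 2 falling without replicate 1 of lc_24 h.

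The clock is a loop in which period and cryptochrome proteins repress their own transcription. Of 39 clock genes 7 rose and none fell, most of them period and cryptochrome genes. *per2*, which light induces in zebrafish, stood at 20.7, 28.6 and 24.0 TPM at 12 h and at 109.7, 99.4 and 114 TPM at 24 h (log2 fold change 2.1 ± 0.09, adjusted p = 5.2e-20). Its mean was 2.24 TPM in ctrl_96 hpf, 2.61 TPM at lc_6 h and 4.90 TPM in ctrl_108 hpf. By age, lc_12 h had the hour of the day of ctrl_108 hpf and lc_24 h that of ctrl_96 hpf. The step was therefore also compared with the change from ctrl_108 hpf to ctrl_96 hpf. That change runs backwards in age while the step runs forwards, so hour and age cannot be told apart in the difference. The difference passed the adjusted p of 0.05 for 30.2% of all genes. For *per2* it was 2.96 (adjusted p = 8.3e-20). The cryptochrome gene *cry3b* rose from 14.1 ± 1.99 to 38.8 ± 0.871 TPM. Its untreated level was 7.04 TPM in ctrl_96 hpf and 34.5 TPM in ctrl_108 hpf, which gave a difference of 3.54 (adjusted p = 8.3e-20). At the same hour as ctrl_108 hpf, the older ctrl_132 hpf had 58.1 TPM of *cry3b*. *cry2* rose 1.69-fold and *per3* rose from 81.5 ± 4.02 to 132 ± 6.63 TPM, and here the untreated larvae also had more at the hour of 24 h, 9.10 against 4.29 TPM and 13.3 against 6.91 TPM, with differences of -0.18 (adjusted p = 0.351) and -0.16 (adjusted p = 0.415). The repressor gene *ciarta* stood at 190.0 ± 6.44 and 181 ± 3.65 TPM and *bhlhe40* at 205 ± 18.8 and 189 ± 5.13 TPM, where untreated larvae had 29.0 against 11.6 TPM and 34.1 against 10.4 TPM, and the differences were -1.32 (adjusted p = 2.9e-14) and -1.73 (adjusted p = 4.0e-15).

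Genes of the glucocorticoid axis and targets of the glucocorticoid receptor, through which cortisol acts, fell in 3 of 16 cases (2 after median-of-ratios scaling) and rose in none. *klf9* stood at 24.5, 21.8 and 33.7 TPM at 12 h and at 12.9, 13.6 and 14.1 TPM at 24 h (log2 fold change -0.91 ± 0.20, adjusted p = 4.7e-04). *fkbp5*, for a cochaperone of the receptor, fell from 38.0 ± 6.89 to 18.6 ± 2.26 TPM, next to 45.8 TPM in ctrl_96 hpf and 27.6 TPM in ctrl_108 hpf. *tsc22d3* fell from 55.0 ± 5.54 to 34.3 ± 6.35 TPM (SD, n = 3), and this call was lost without replicate 3 of lc_24 h (-0.55), after median-of-ratios scaling (-0.56) and with its IDs summed (-0.31). *sgk1* stood at 44.8 ± 2.76 and 38.3 ± 2.70 TPM (adjusted p = 0.318), and with its IDs summed its log2 fold change was 0.51. The difference from the change from ctrl_108 hpf to ctrl_96 hpf was -1.44 for *klf9* (adjusted p = 1.5e-04) and -1.59 for *fkbp5* (adjusted p = 7.7e-04). Hour and age cannot be told apart in it.

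The cytochrome P450 gene *cyp24a1*, for the hydroxylase that breaks down active vitamin D, was among the genes with the largest rise and stood at 6.61, 7.27 and 7.74 TPM at 12 h and at 31.4, 33.7 and 27.9 TPM at 24 h (log2 fold change 1.96 ± 0.18, adjusted p = 7.8e-11). *cyp26a1*, for the hydroxylase that breaks down retinoic acid, stood at 10.8, 16.4 and 14.8 TPM and at 55.1, 49.5 and 47.6 TPM (log2 fold change 1.80 ± 0.13, adjusted p = 2.3e-13). Neither group overlapped with the other in these genes. Another cytochrome P450 gene, *cyp2n13*, rose from 7.53 ± 3.93 to 36.8 ± 2.34 TPM, *abhd2a*, for a lipid hydrolase, from 5.38 ± 2.16 to 28.1 ± 1.93 TPM and *rida*, for an imine deaminase, from 46.3 ± 10.6 to 169 ± 20.5 TPM (SD, n = 3). The largest log2 fold change among the named genes was the 3.45 ± 0.65 of the glutathione transferase gene *gsta.2*, whose samples were 6.37, 0 and 4.25 TPM at 12 h and 41.7, 40.8 and 27.3 TPM at 24 h, and which was 1.75 with the 2 IDs of its symbol summed. A microRNA precursor gene, *dre-mir-21-1*, rose from 8.64, 10.5 and 12.5 TPM to 53.5, 61.6 and 59.5 TPM (log2 fold change 2.37 ± 0.20, adjusted p = 1.1e-11). Such a value measures the annotated precursor in an mRNA library and not the mature microRNA.

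Lipid and sugar metabolism changed in single enzymes. Of 30 genes of sterol synthesis and uptake 2 rose and 6 fell, with a median of -0.10 equal to that of all genes. The 2 were *hmgcra*, for the rate-limiting HMG-CoA reductase (7.69 ± 0.917 to 17.4 ± 2.29 TPM, a log2 fold change of 1.08 that was 0.59 with the 2 IDs of its symbol summed), and *ldlra*, for the receptor that takes up lipoproteins (46.2 ± 3.77 to 72.7 ± 2.21 TPM). Among those that fell were *mvda*, for a later step of the same pathway (5.73 ± 0.834 to 2.22 ± 1.11 TPM), and the regulator gene *srebf2* (33.6 ± 0.313 to 21.8 ± 0.492 TPM), whose call was not kept after median-of-ratios scaling (-0.49) or quantile normalization (-0.52). The number of sterol genes that fell was 2 without replicate 3 of lc_24 h, 3 after median-of-ratios scaling and 2 after quantile normalization. Of 17 genes of fatty acid synthesis, desaturation and elongation 2 rose (1 without replicate 1 of lc_24 h) and 2 fell (1 after either other scaling). The desaturase gene *scd*, whose product makes membrane lipids more fluid, rose from 4.07 ± 1.18 to 11.2 ± 1.06 TPM without overlap (log2 fold change 1.29 ± 0.21, adjusted p = 4.9e-06), and the elongase gene *elovl7a* fell from 9.03 ± 1.63 to 3.94 ± 0.246 TPM (SD, n = 3). In the list of gluconeogenesis and fasting 1 of 27 rose and 3 fell (1 after median-of-ratios scaling), the riser being *tat*, for tyrosine aminotransferase, at 2.15, 2.84 and 2.37 TPM and then 9.54, 10.6 and 9.51 TPM. The glucokinase gene *gck* fell from 7.13 ± 2.1 to 1.76 ± 0.855 TPM.

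The lens list had the lowest median of all 52 lists, -0.42, with none of 61 genes upregulated and 11 downregulated. The crystallin gene *crygm2d4* stood at 528, 639.5 and 647 TPM at 12 h and at 384, 254 and 383 TPM at 24 h, and *mipa*, for the water channel of lens fibres, at 58.7, 60.3 and 65.5 TPM and at 39.1, 27.1 and 36.5 TPM. In both the groups were apart, and replicate 2 of lc_24 h was the lowest sample. *crygm2d4* shares its symbol with another ID, and with both summed its log2 fold change was -0.45 and no call. The lens factor gene *hsf4* fell from 3070.0 ± 165 to 1910.2 ± 39.1 TPM (SD, n = 3), which median-of-ratios scaling did not call (-0.56). Of the list, 27 genes fell without replicate 3 of lc_24 h, 21 without replicate 3 of lc_12 h and 6 without replicate 2 of lc_24 h, and after median-of-ratios scaling 6 fell and after quantile normalization 12. The sum of the list was 24488 to 28653 TPM at 12 h and 15245 to 22511 TPM at 24 h. In untreated larvae 16 of its genes rose between 108 and 132 hpf and 1 fell. Over that span *hsf4* went down, from 2204 to 1221 TPM, and its difference between the step in the cold and the step of growth was 0.16 (adjusted p = 0.249).

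Lists of matrix and cell cycle genes also had medians below that of all genes. Of 61 collagens, collagen-processing and cartilage genes 2 rose and 7 fell, with a median of -0.30. After median-of-ratios scaling 2 fell and after quantile normalization 3, where 3.67% and 3.29% of all genes fell. *serpinh1b*, for the collagen chaperone Hsp47, stood at 28.7, 27.9 and 33.6 TPM at 12 h and at 14.6, 12.7 and 15 TPM at 24 h (log2 fold change -1.04 ± 0.11, adjusted p = 1.3e-09), after 96.9 TPM in ctrl_96 hpf. *fkbp9*, for a prolyl isomerase, fell from 44.6 ± 4.08 to 22.8 ± 1.15 TPM. The cartilage collagen gene *col2a1b* fell from 212 ± 5.07 to 137 ± 5.21 TPM, no call after median-of-ratios scaling (-0.51), and *col1a1a* stood at 1333 ± 18 and 1026 ± 44.0 TPM (SD, n = 3), under the fold limit. The number of upregulated members was 1 without replicate 1 or 2 of either group. Of 57 genes of replication and the cell cycle none rose and 7 fell (median -0.28), and 4 fell after each of the other scalings. The mitotic kinase gene *cdk1* stood at 26.4, 24.2 and 24.7 TPM at 12 h and at 12.7, 14.8 and 12.2 TPM at 24 h (log2 fold change -0.88 ± 0.10, adjusted p = 7.8e-09). *aurkb* and the helicase gene *mcm2* each fell 1.69-fold, and *top2a* fell 1.57-fold, which the other scalings did not call (-0.51 and -0.54). *pcna*, for the sliding clamp of replication, stood at 202 ± 7.28 and 181 ± 3.09 TPM (SD, n = 3). From 108 to 132 hpf in untreated larvae 18 of the 61 matrix genes and 30 of the 57 cell cycle genes fell. None of either list rose, and 5.97% of all genes fell. The difference between the step in the cold and the step of growth was 0.74 for *fkbp9* (adjusted p = 1.6e-06). It was -0.38 for *col2a1b* (adjusted p = 0.00802), -0.31 for *cdk1* (adjusted p = 0.106) and -0.18 for *aurkb* (adjusted p = 0.188).

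**Figure D4:**
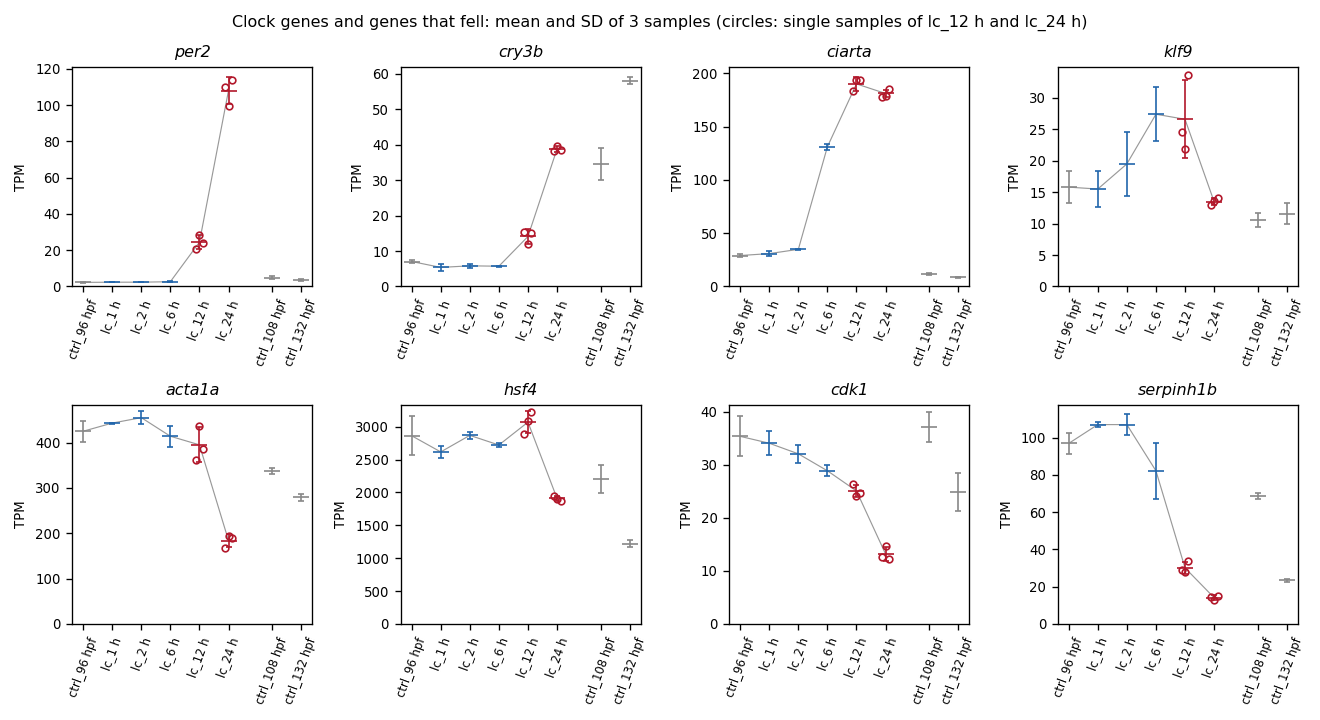
TPM of the clock genes *per2*, *cry3b* and *ciarta*, the glucocorticoid target *klf9* and the downregulated *acta1a*, *hsf4*, *cdk1* and *serpinh1b* over the time at 10 °C and in untreated larvae of 3 ages, as mean and SD of 3 samples with circles for single samples of lc_12 h and lc_24 h and groups spaced evenly. *per2* rose from 24.4 to 108 TPM where *ciarta* stayed at means of 190.0 and 181 TPM, and *acta1a* stood at 395 TPM in lc_12 h and 184 TPM in lc_24 h.

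Of 50 sarcomere genes none rose (2 after median-of-ratios scaling) and 2 fell, of which *acta1a*, for a skeletal muscle actin, went from 362, 437 and 385 TPM to 167, 195 and 189 TPM (log2 fold change -1.10 ± 0.06, adjusted p = 1.1e-16). The far more abundant actin gene *actc1b* stood at 18618 ± 585 and 16544 ± 645 TPM and the parvalbumin gene *pvalb2* at 13466 ± 689 and 17472 ± 562 TPM (SD, n = 3), neither beyond the fold limit. Of 17 erythrocyte genes none rose and 2 fell (1 in each direction after either other scaling), among them the globin gene *hbae1.1* from 642 ± 80.5 to 320.0 ± 17.3 TPM, and 1 fell without replicate 2 of lc_12 h or replicate 2 or 3 of lc_24 h, while *hbae3* stood at 1517 ± 44.5 and 1077 ± 92.2 TPM. Of 40 genes of the epidermis 1 rose (2 after median-of-ratios scaling) and 4 fell, a number that was 2 without replicate 1 of lc_12 h or of lc_24 h, 1 without replicate 3 of lc_24 h and 0 after median-of-ratios scaling, and *krt4* had overlapping groups at 3636 ± 187 and 3452 ± 201 TPM. Of 54 photoreceptor genes 2 rose and 2 fell (1 after median-of-ratios scaling, 6 with the IDs of each symbol summed), with none rising without replicate 1 of lc_12 h and 5 falling without replicate 3 of lc_24 h. *rs1a*, for the retinal adhesion protein retinoschisin, fell from 140.2 ± 1.47 to 89.5 ± 5.30 TPM, a call that median-of-ratios scaling did not keep (-0.52).

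None of 51 neuronal genes, 21 genes of glia, 79 ribosomal protein genes or 39 proteasome genes was called, and medians were -0.15, -0.07, 0.06 and -0.17. After median-of-ratios scaling 1 ribosomal protein gene rose, and without replicate 1 of lc_12 h or replicate 3 of lc_24 h 1 neuronal gene fell. Among 88 nuclear genes of oxidative phosphorylation 2 rose (median 0.09), or 1 without replicate 1 or 3 of lc_12 h, and among 9 mitochondrially encoded genes the 2 that rose included *mt-atp8*, from 4652, 6529.7 and 4123 TPM to 9654, 8375 and 7939.5 TPM. Without replicate 1 of lc_12 h 1 of the 9 rose. Of 27 genes of SR splicing proteins, CLK kinases and cold-induced RNA binding proteins none rose and 3 fell (1 after median-of-ratios scaling), among them *srsf6a* (66.4 ± 1.49 to 42.1 ± 0.836 TPM) and *tra2b* (29.6 ± 2.96 to 17.8 ± 2.56 TPM), and only *tra2b* of these 2 kept its call after median-of-ratios scaling (-0.60 against -0.53). *cirbpb*, for a cold-inducible RNA binding protein, had means of 1404 and 1534 TPM, and the histone gene *h2afx1*, at 387 TPM in ctrl_96 hpf and 1712 TPM at lc_6 h, at 3205 ± 104 and 3174 ± 147 TPM (SD, n = 3). Of 20 histone genes 1 rose (5 after median-of-ratios scaling, 2 after quantile normalization, 2 without replicate 1 of lc_24 h) and 1 fell, *hist1h2ba* from 25.4 ± 0.901 to 41.6 ± 2.75 TPM (not called with a pseudocount of 0.1 or 0.5) and *h3f3c* from 223 ± 40.5 to 118 ± 35.4 TPM (SD, n = 3). Histone genes have near-identical copies, among which reads can be split.

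The genes with the largest drops came from no single list. *igfbp5a* stood at 19.8, 43.5 and 27.8 TPM at 12 h and at 2.18, 3.38 and 2.43 TPM at 24 h (log2 fold change -3.04 ± 0.26, adjusted p = 6.8e-12), and with the 2 IDs of its symbol summed the change was -2.46. *gsnb*, for an actin-severing gelsolin, fell from 37.3 ± 1.57 to 14.2 ± 1.86 TPM and *pnp4a*, for a purine phosphorylase that marks iridophores in zebrafish, from 38.7 ± 2.09 to 14.7 ± 0.953 TPM (SD, n = 3). *cyp2aa3* fell from 5.89 ± 0.645 to 1.45 ± 0.305 TPM, *hmcn1*, for the matrix protein hemicentin, from 6.87 ± 0.395 to 2.05 ± 0.974 TPM, *odam* from 14.1 ± 2.11 to 4.71 ± 0.851 TPM and the carboxylesterase gene *ces3* from 19.1 ± 1.89 to 6.84 ± 1.16 TPM. *agrp*, for a peptide that drives feeding, fell from 5.34 ± 1.58 to 1.2 ± 0.990 TPM and *zdhhc24*, for a palmitoyl transferase, from 6.35 ± 0.313 to 1.28 ± 0.633 TPM.

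The calls of 3 further genes each hung on single samples. *hsd3b7*, for an enzyme of bile acid synthesis, stood at 17.3, 15 and 16.2 TPM at 12 h and was listed at 0 in replicates 1 and 2 and at 11.7 TPM in replicate 3 of lc_24 h, and its call was lost without either replicate 1 or 2 (-2.27 in both cases). *gnrh3*, for a gonadotropin-releasing hormone, was listed at 0 in replicate 1 of lc_24 h, and its call was lost without that sample (-1.46). *cald1a*, for caldesmon, was at 14.0, 97.4 and 15 TPM at 12 h and at 10.7, 10.6 and 9.74 TPM at 24 h, and without replicate 2 of lc_12 h its log2 fold change was -0.45 and no call.

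Some symbols have several IDs. Of the 926 upregulated genes 261 and of the 1404 downregulated genes 448 share their symbol with another ID of the table. Of all 25387 IDs tested, 5037 share their symbol with another tested ID, a smaller part than among the calls. Among the calls that share a symbol, 153 upregulated and 265 downregulated were not the most abundant ID of that symbol. With IDs of a symbol summed, 784 symbols (3.44%) rose and 1121 (4.92%) fell of 22796 tested. With IDs summed 3 BCL2 and caspase genes and 1 gene of oxidative phosphorylation rose, and 1 NF-kB gene, 1 gene of the MAP kinase phosphatase list, 2 interferon response genes, 1 sarcomere gene and 1 leukocyte gene fell. The log2 fold change became -0.77 for *zdhhc24* (from -1.73), -0.76 for *gnrh3* (from -1.94), -0.92 for *hsd3b7* (from -2.88) and -0.89 for *ces3* (from -1.37), and these 4 kept their calls. The lipid droplet gene *plin2* shows the pattern and was picked after its values were seen. One of its IDs stood at 15.6, 16.8 and 17.8 TPM at 12 h and at 42.7, 44.2 and 31.7 TPM at 24 h, and the other at 7.95, 8.76 and 9.18 TPM and at 0.121, 0.0771 and 0.0509 TPM. Summed, *plin2* rose by 0.61 on the log2 scale (adjusted p = 3.4e-04). Among genes at 5 TPM or more in every lc_12 h sample, 11 were listed at 0 in all of lc_24 h, and 10 of them share a symbol. In such pairs a change in expression and a different assignment of reads between records of 1 symbol cannot be told apart.

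The same genes were then set beside the abnormal and normal survivors of a 24 h exposure, which share no sample with the step. In er_ab against er_nor 5.58% of all genes were upregulated and 4.74% downregulated. Of the 926 genes that rose from 12 h to 24 h, 229 were upregulated in er_ab, which is 24.7% of the former and 16.2% of the latter list, and 87 (9.40% and 7.23%) were downregulated. Of the 1404 genes that fell, 133 (9.47% and 11%) were downregulated and 55 (3.92% and 3.88%) upregulated in er_ab. *mmp13a* was 4.38 higher in er_ab on the log2 scale (adjusted p = 1.4e-08), *cxcl8a* 2.17 (adjusted p = 1.5e-04), *lepb* 5.08 (adjusted p = 1.1e-14), *fosl1a* 3.21 (adjusted p = 1.3e-09) and *dre-mir-21-1* 2.87 (adjusted p = 1.3e-14). Of the inflammatory list 19 of 24 members were upregulated in er_ab, of the leptin list 13 of 24 and of the integrated stress response 14 of 32. Low genes of the inflammatory and leptin lists were tested only through groups where they were higher, and er_ab can be such a group. The counts of these 2 lists and the value of *lepb* can therefore depend on the filter.

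Digestive genes were mostly not higher in er_ab. None of the 26 pancreatic genes was upregulated and 1 was downregulated in er_ab, and of the 27 intestinal genes 2 were upregulated and 9 downregulated. *fabp2* was lower in er_ab (log2 fold change -1.14, adjusted p = 5.0e-13) and *sycn.2* had a log2 fold change of -0.90 (adjusted p = 9.4e-05), while *prss1* had -0.16 (adjusted p = 0.362). *per2* and *cyp26a1* had log2 fold changes of -0.02 (adjusted p = 0.883) and -0.13 (adjusted p = 0.497) between the survivors, next to 2.1 and 1.80 in the cold. *gck* and *tsc22d3* fell from 12 h to 24 h and were higher in er_ab, by 1.12 (adjusted p = 0.00281) and 0.98 (adjusted p = 9.6e-07).

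**Figure D5:**
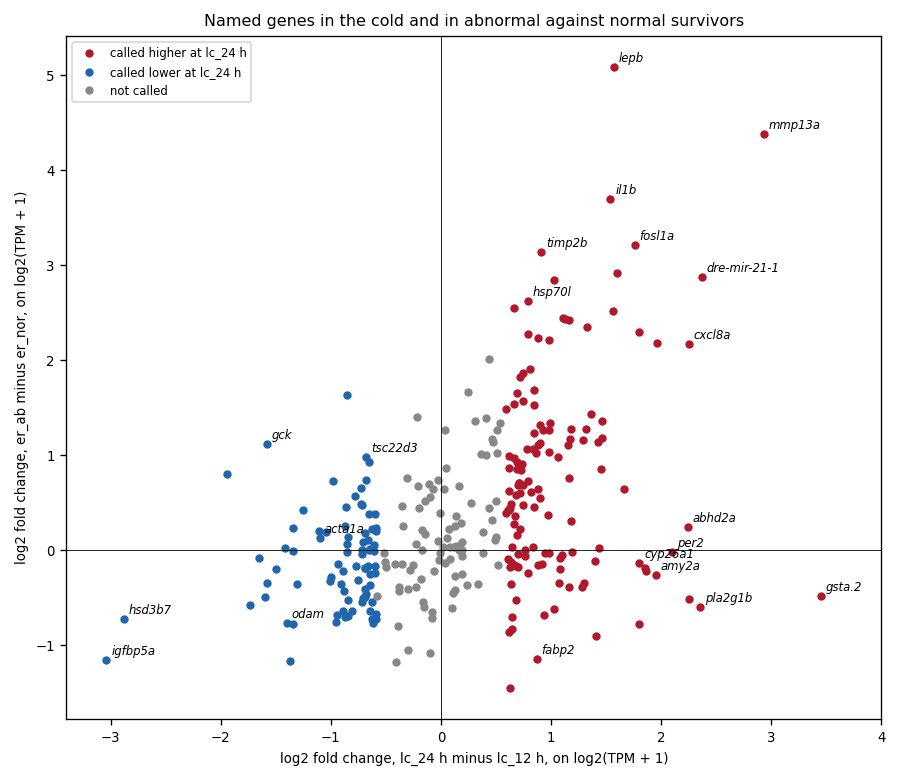
Log2 fold change from lc_12 h to lc_24 h (horizontal) and from er_nor to er_ab (vertical) of the named genes, coloured by their call in the cold, with 1 point per gene. *mmp13a* (2.93 and 4.38) and *lepb* (1.57 and 5.08) lay in the upper right, and *per2* (2.1 and -0.02), *pla2g1b* (2.35 and -0.60) and *fabp2* (0.87 and -1.14) rose in the cold without being higher in er_ab.

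The step was also set beside the change after 6 h at 10 °C and beside growth, which share no sample with it. Of the 926 genes that rose from 12 h to 24 h, 123 had risen by 6 h, which is 13.3% of this list and 18.3% of the earlier one, and 6 (0.648% and 1.08%) had fallen. Of the 1404 genes that fell, 70 (4.99% and 12.6%) had fallen and 30 (2.14% and 4.46%) had risen by 6 h. Of the immediate early genes 28 of 36 had risen by 6 h, of the inflammatory list 3 of 24. With untreated growth from 108 to 132 hpf, the upregulated genes shared 74 (7.99% and 19.2%) that rose and 81 (8.75% and 5.35%) that fell, and the downregulated genes 175 (12.5% and 11.6%) that fell and 18 (1.28% and 4.68%) that rose.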

How the data were processed

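Whole larvae of 54 samples in 18 groups of 3 had been sequenced as mRNA (RIN above 9.0 per the labels). The authors had quantified reads with Salmon 0.13.1 against Ensembl transcripts and summarised them to genes, and the deposited values used here are TPM per gene and sample for 30097 IDs (column sums 998493 to 999530). TPM keeps no read depth, the study's read numbers per library were not used here, and no counting interval is given. A gene was kept when some group had all its samples at 1 TPM or above. Genes low at 12 h could therefore enter through groups where they were higher, and counts of a list refer to its genes tested. Of the inflammatory list 24 of the 29 genes in the table were tested, and of the interferon list 20 of 33. From these TPM, log2(TPM + 1) was fitted with limma 3.58.1 in R 4.3.3 (18 group means, 36 residual degrees of freedom, trended variance) and adjusted by Benjamini-Hochberg over all genes tested. Fold changes are on the log2(TPM + 1) scale, which understates those of low genes, while folds in the text are ratios of mean TPM. Contrasts were lc_24 h against lc_12 h, er_ab against er_nor, lc_6 h against ctrl_96 hpf, ctrl_132 hpf against ctrl_108 hpf and differences between such steps. The script was tested on simulated data.

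Named genes were the 15 largest called changes each way among genes at 5 TPM or more with samples apart, up to 4 called and the 2 most abundant members of each list, the hubs named by the study, genes reversing after 6 h and the largest TPM differences, with further list members added after their values were seen. Some genes that the rule names are not reported here. The samples compared and the gene lists were chosen with earlier results of these data known. Alternatives were the pseudocount, the filter, median-of-ratios and quantile scaling, the thresholds, the variance model, a replicate block and leaving out each sample. Summing IDs of a symbol, and alternatives for the comparisons other than lc_24 h against lc_12 h, were chosen after seeing the data.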

Additional observations from a re-analysis of the deposited data

Results flagged for a closer look

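For the 3 genes flagged here all lc_24 h samples lay on one side of all lc_12 h samples. The mean of untreated larvae went the other way from 108 to 132 hpf. Opposite movement was not limited to these 3 genes. By the calls, 81 genes rose from lc_12 h to lc_24 h and fell in untreated growth, and 18 did the reverse. For the 3 flagged genes the values follow. The difference between the steps on the log2 scale was 1.29 for *dre-mir-22a* (adjusted p = 4.5e-12), 2.75 for *rida* (adjusted p = 6.1e-08) and -2.86 for *odam* (adjusted p = 2.2e-10), by limma's test of the contrast. Mean TPM in ctrl_108 hpf and ctrl_132 hpf was 32.0 and 19.9 for *dre-mir-22a*, 65.1 and 34.8 for *rida* and 6.07 and 18.3 for *odam*. The spans of the steps, 12 h in the cold and 24 h at 28 °C, differ.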

How the results depend on the processing

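From lc_12 h to lc_24 h the number of upregulated genes was 1415 after median-of-ratios scaling and 296 at a fold of 2, and the number of downregulated genes 2579 with a pseudocount of 0.1, 931 after median-of-ratios scaling, 834 after quantile normalization and 280 at a fold of 2. The median of all genes was -0.127 and -0.115 with pseudocounts of 0.1 and 0.5, -0.079 with no filter, and -0.005 and -0.015 after median-of-ratios and quantile scaling. For er_ab against er_nor a fold of 2 left 522 upregulated and 271 downregulated genes. For lc_6 h against ctrl_96 hpf it left 358 and 82, and downregulated genes numbered 901 with a pseudocount of 0.1 and 323 after median-of-ratios scaling. For ctrl_132 hpf against ctrl_108 hpf it left 130 and 256, with 630 and 828 after median-of-ratios scaling and 680 and 833 after quantile normalization. Of 166 genes named, 139 were called, and 131 of these kept their call with any 1 of the 6 samples left out. None of the 139 changed direction under any alternative run, while *sgk1*, which was not called, went from -0.22 to 0.51 with its IDs summed.

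With the replicate block 921 genes rose and 1412 fell, and it changed no call of a named gene. Same-numbered samples of lc_12 h and lc_24 h had correlations of deviations of 0.015, -0.002 and 0.014. Such values cannot tell whether these samples shared a clutch or dish, and the samples were not treated as pairs. TPM holds no read depth, and the read numbers that the study lists per library were not set against any result.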
